A study of Homo sapiens with 6 samples.

Results

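The genes described here encode the cadherins, the desmosome and the catenins and nectins of the adherens junction. They were the rows of the deposited expression table whose platform symbol is a numbered cadherin (CDH), a desmoglein (DSG), a desmocollin (DSC) or a plakophilin (PKP), or one of 15 named genes for desmosomal plaque proteins, PERP, catenins, nectins and afadin. The rule gave 47 members out of 23786 rows. Arrays measured expression in HSC3, a human cell line established from an oral squamous carcinoma. The 3 control wells received 0.1% dimethyl sulfoxide (DMSO). The other 3 wells received 0.1 μM E7386 dissolved in DMSO, a compound described as blocking the interaction of β-catenin with the coactivator CBP. Cells were treated 12 to 24 hours after seeding, at about 50% confluency, and RNA was taken after 48 to 64 hours. The wells are labelled biological replicates and are described as separate wells of a triplicate. The p-values reflect well-to-well spread alone, which may be partly technical.

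Cadherins are calcium-dependent adhesion proteins, and the classical ones mostly bind their like on the neighbouring cell. In the adherens junction the tail of a classical cadherin binds p120-catenin and β-catenin, and α-catenin links that complex to actin. β-Catenin is also the transcriptional effector of the Wnt pathway, so the same protein serves adhesion and the process that E7386 is meant to block. In the desmosome, desmogleins and desmocollins bind plakoglobin and plakophilins, and desmoplakin ties this plaque to keratin filaments. Nectins are immunoglobulin-like adhesion proteins that join the adherens junction through afadin. Squamous epithelia depend on both junctions for their cohesion.

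Values are log2 expression from RMA, on which a difference of 1 is 2-fold. A gene was called at a Benjamini-Hochberg adjusted p under 0.05 in limma, adjusted over all 23786 rows, and n is 3 wells a group throughout. Of the 47 members 9 were called, 4 higher and 5 lower with E7386. That is 19.1% of members, beside 18.6% of all rows, with 9.93% of all rows called higher and 8.69% lower. The median difference was -0.029 over the members and -0.016 over all rows. The share of members called was thus close to that of all rows, and the results below concern single genes. The 3 wells of each group did not overlap in 15 members, 7 of them higher and 8 lower, a share of 31.9% beside 35.2% of all rows. The other 32 members overlapped. With a further minimum of 1.5-fold, 5 members were called, CDH2 and DSG3 higher and CTNND1, NECTIN1 and PPL lower, beside 9.13% of all rows.

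Members fell into those above and those below the median row of the table, whose mean was 3.75. Of the 24 members below it none was called in limma, none had an unadjusted p under 0.05, and their differences ran from -0.25 to 0.20. Among all rows below the median row 4% were called. RMA compresses the differences of dim genes and makes no call of detection, and the values cannot show whether these genes are expressed. Of the 23 members above the median row 9 were called, beside 33.2% of all rows above it. In bulk RNA, fewer cells of one kind and less RNA per cell cannot be told apart.

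**Figure D1:**
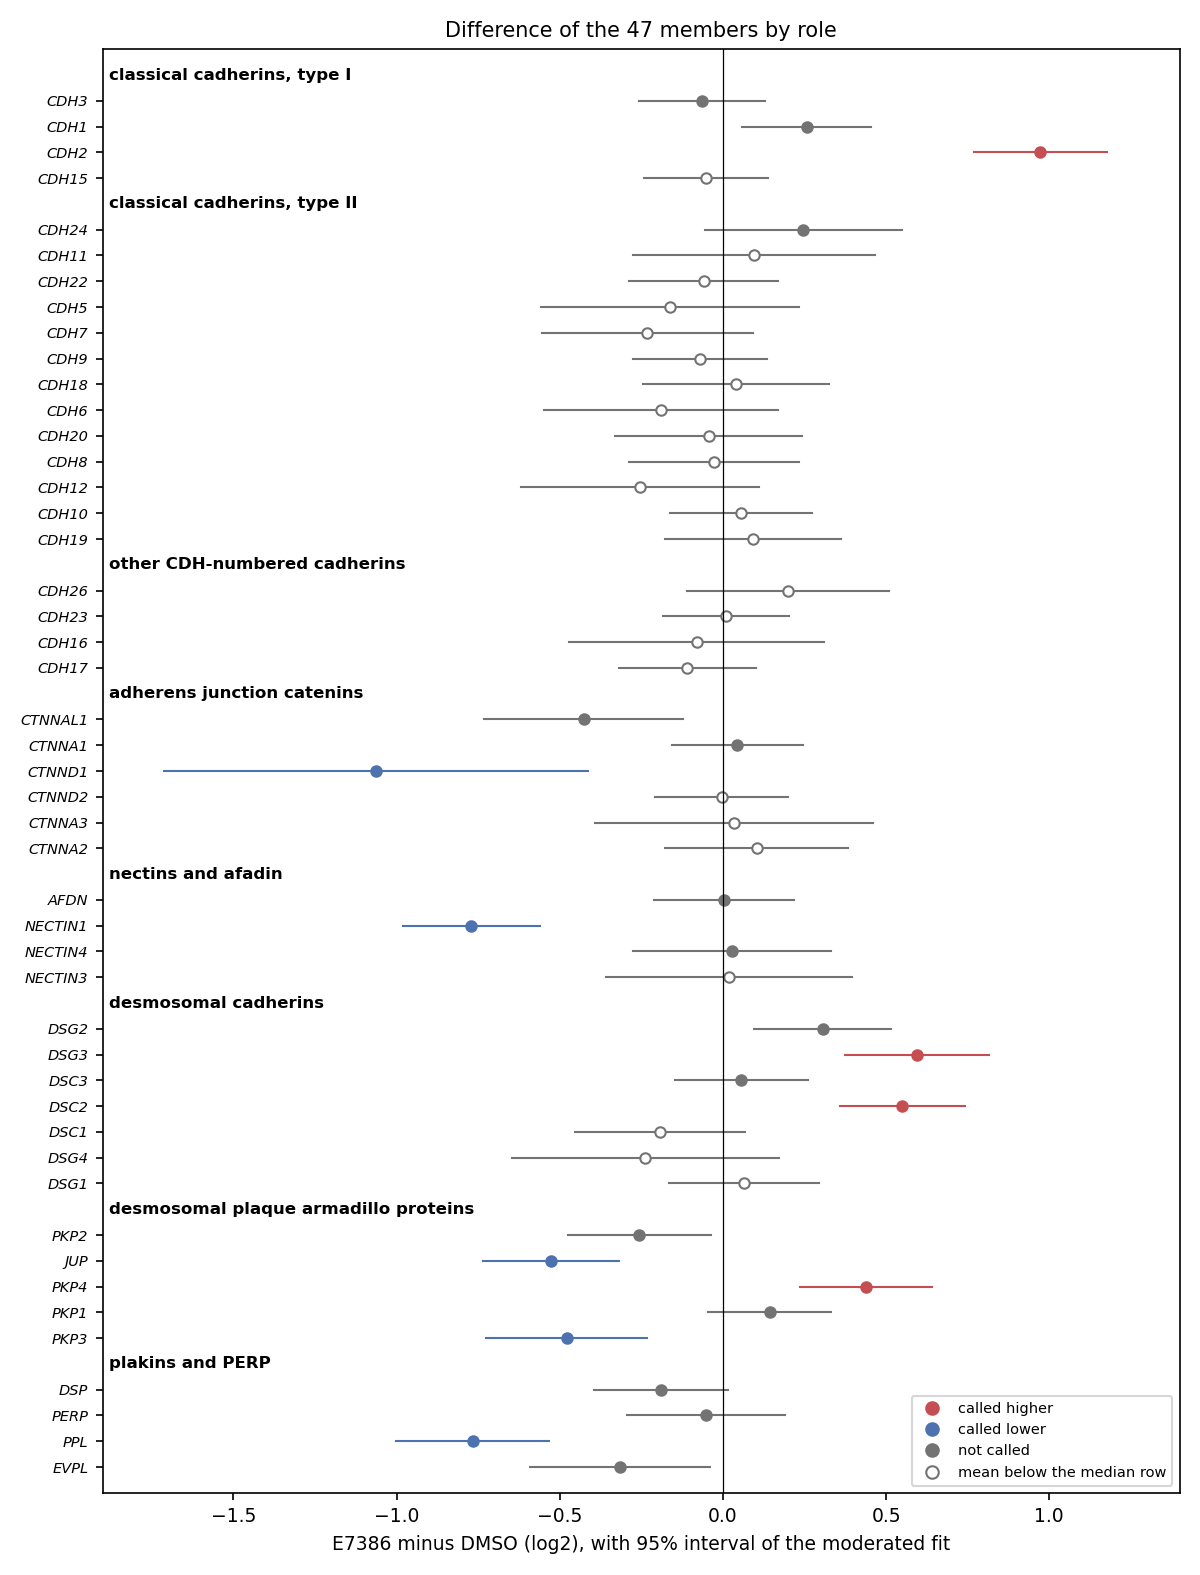
Difference between E7386 and DMSO wells for each of the 47 members, grouped by role, on the log2 scale with the 95% interval of the moderated fit. Red and blue points are the 4 members called higher and the 5 called lower, grey points were not called, and open points lie below the median row.

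Among the type I classical cadherins, CDH2 rose while CDH3 was not called. CDH2 encodes N-cadherin, the cadherin of neural and mesenchymal cells that carcinoma cells can acquire. It read 6.73, 6.58 and 6.65 in the DMSO wells and 7.58, 7.69 and 7.60 in the E7386 wells. The groups lay far apart relative to the spread within them. The rise was 0.97 ± 0.087 (SE) on the log2 scale, 1.96-fold (limma adjusted p = 4.3e-04), and CDH2 had the largest rise among the members.

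CDH1 encodes E-cadherin, the main adhesion molecule of epithelial cells. It read 8.51, 8.61 and 8.65 in DMSO and 8.86, 8.87 and 8.80 with E7386. All E7386 wells lay above all DMSO wells, but the difference of 0.26 ± 0.085 was not called (limma adjusted p = 0.081). Its 95% interval ran from 0.058 to 0.45. It was called in 4 of the 14 other fits, with a smallest adjusted p of 0.0082 in limma with an intensity trend. CDH3, the gene of P-cadherin of basal epithelial cells, read 9.68, 9.67 and 9.76 in DMSO and 9.62, 9.61 and 9.69 with E7386. Its wells overlapped, and the difference of -0.064 had an interval from -0.26 to 0.13 (limma adjusted p = 0.68). CDH15, the M-cadherin of muscle, lay below the median row, with 3.62 ± 0.054 (SD) in DMSO and 3.57 ± 0.012 with E7386.

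None of the 13 type II classical cadherins was called in limma, none had an unadjusted p under 0.05, and 12 of them lay below the median row. CDH24 was the exception in level, at 6.17, 6.43 and 6.62 in DMSO and 6.73, 6.55 and 6.68 with E7386. Its wells overlapped and the difference of 0.25 ± 0.13 was not called (limma adjusted p = 0.26). CDH11, known as OB-cadherin of mesenchymal cells, averaged 3.02 ± 0.32 (SD) in DMSO and 3.12 ± 0.075 with E7386. CDH5, the VE-cadherin of endothelial cells, averaged 2.40 ± 0.27 and 2.24 ± 0.23. The others had means over all wells down to 1.25, the value of CDH19. The 4 other numbered cadherins, CDH16, CDH17, CDH23 and CDH26, also lay below the median row, and their differences ran from -0.11 to 0.20 with none called. CDH4 and CDH13 were not analysed here.

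Among the catenins of the adherens junction, CTNND1 fell. It encodes p120-catenin, which binds the membrane-near part of the cadherin tail and keeps cadherins at the cell surface. It read 6.07, 5.62 and 4.95 in DMSO and 4.62, 4.66 and 4.15 with E7386. The groups did not overlap, but the DMSO wells spanned over 1 unit and the lowest of them lay close to the E7386 wells. The fall of 1.06 ± 0.28 (SE), 2.09-fold, was the largest among the members and also the least precise (limma adjusted p = 0.036). The call was lost without any one well other than DMSO replicate 3, with adjusted p of 0.070 to 0.11 in limma, and in the ordinary two-sample test. Without DMSO replicate 3 the fall was 1.36.

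CTNNA1 encodes αE-catenin, the actin linker of the complex. It read 8.65, 8.74 and 8.58 in DMSO and 8.70, 8.74 and 8.66 with E7386. The wells overlapped and the difference of 0.044 had an interval from -0.16 to 0.24 (limma adjusted p = 0.80). CTNNAL1, the gene of the related protein α-catulin, averaged 9.16 ± 0.22 (SD) in DMSO and 8.73 ± 0.11 with E7386. Its E7386 wells all lay below its DMSO wells, and the difference of -0.43 ± 0.13 (SE) was not called (limma adjusted p = 0.062). The neural and heart paralogs CTNNA2, CTNNA3 and CTNND2 lay below the median row, between 1.88 and 2.96 over all wells.

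NECTIN1 fell by 0.77 ± 0.090 (SE), 1.71-fold (limma adjusted p = 0.0014). Nectin-1 is an adhesion receptor that starts cell contacts and is also an entry receptor of herpes simplex virus. It read 5.51, 5.43 and 5.33 in DMSO and 4.71, 4.62 and 4.62 with E7386, with no overlap. NECTIN4 averaged 3.92 ± 0.16 (SD) and 3.95 ± 0.18, and NECTIN3 3.59 ± 0.30 and 3.61 ± 0.15, both close to the median row. AFDN encodes afadin, the actin-binding scaffold of nectins. It read 7.80, 7.72 and 7.70 in DMSO and 7.86, 7.68 and 7.69 with E7386. Its difference of 0.0021 had an interval from -0.21 to 0.22, and its sign turned in 4 of the 14 other fits.

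Of the 7 desmosomal cadherins 2 rose and none fell. At an unadjusted p under 0.05 in limma 3 were higher and none lower. The 4 above the median row hold both calls, and among all rows above it 18.2% were called higher and 15.1% lower. DSG3, desmoglein 3 of basal squamous cells and the autoantigen of pemphigus vulgaris, read 7.37, 7.32 and 7.13 in DMSO and 7.87, 7.89 and 7.85 with E7386. The E7386 wells were nearly identical and all lay above the DMSO wells. The rise was 0.59 ± 0.094 (SE), 1.51-fold (limma adjusted p = 0.0049). DSC2, the most widely expressed desmocollin, read 6.15, 6.25 and 6.22 in DMSO and 6.73, 6.73 and 6.80 with E7386. It rose by 0.55 ± 0.082, 1.46-fold (limma adjusted p = 0.0038), again without overlap.

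DSG2, the desmoglein of simple epithelia and many carcinomas, read 7.96, 8.12 and 8.06 in DMSO and 8.30, 8.43 and 8.32 with E7386. The groups did not overlap, and the difference of 0.31 ± 0.090 missed the threshold (limma adjusted p = 0.054). DSC3, the desmocollin of basal squamous layers, read 6.98, 7.09 and 7.14 in DMSO and 7.09, 7.13 and 7.17 with E7386. Its wells overlapped and its difference of 0.057 had an interval from -0.15 to 0.26. DSG1, DSC1 and DSG4, which belong to differentiated epidermis and hair, lay at 1.33 to 1.84 over all wells, below the median row.

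**Figure D2:**
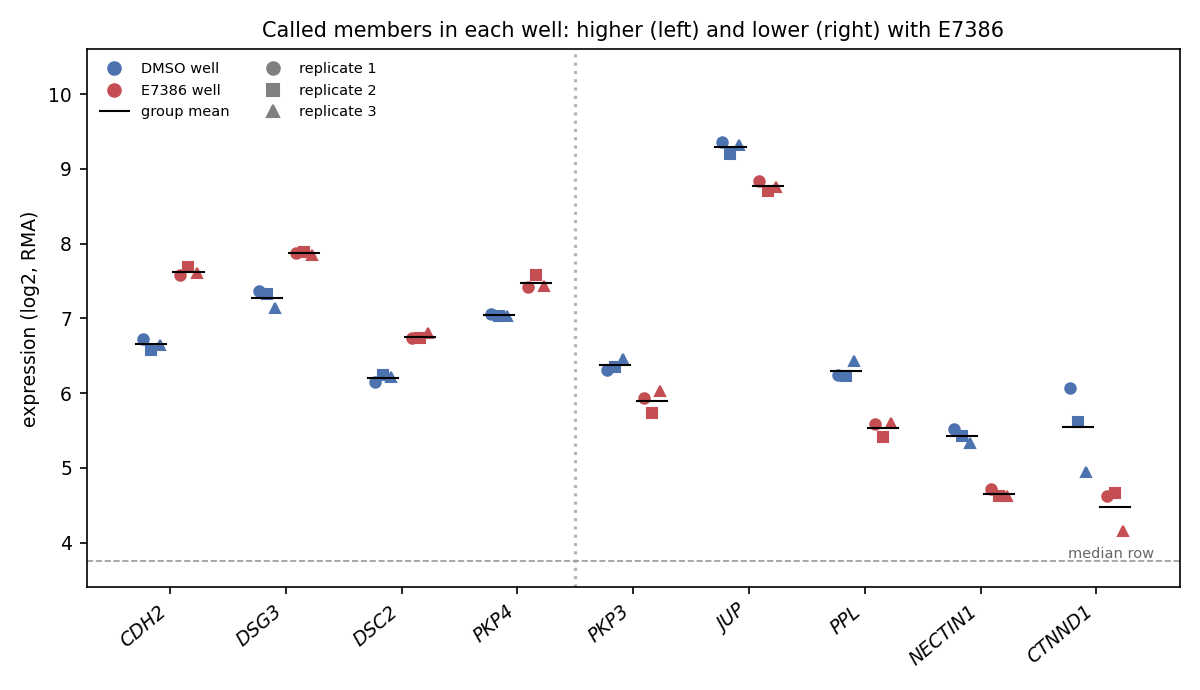
Log2 expression of the 9 called members in each well, with DMSO in blue, E7386 in red, a symbol for each replicate number and a bar for the group mean. The 3 E7386 wells lie on one side of the 3 DMSO wells for every gene, and CTNND1 has the widest spread, from 4.95 to 6.07 in DMSO.

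The 7 desmosomal cadherin genes are neighbours. In the RefSeq table of GRCh38.p14 the coding genes DSC3, DSC2, DSC1, DSG1, DSG4, DSG3 and DSG2 follow one another on chromosome 18 with no other coding gene between them, and CDH2 is the next listed coding gene before DSC3. All 3 called members of this run of 8 genes were higher, namely CDH2, DSC2 and DSG3. Among all rows 9.93% were called higher, and among rows above the median row 18.2%. The run was noticed after the values were seen. It is a run by gene order only, and CDH2 lies well apart from the other 7. The first listed promoter of CDH2 lies at chr18:28177131-28177380, beside chr18:31042743-31042992 for DSC3 and chr18:31497927-31498176 for DSG2. The 3 called genes did not stand together, because DSC3 lies between CDH2 and DSC2 and was not called. DSC1, DSG1 and DSG4 lie between DSC2 and DSG3 and were below the median row in both groups. On chromosome 16, CDH3 and CDH1 are likewise adjacent coding genes, with differences of -0.064 and 0.26.

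**Figure D3:**
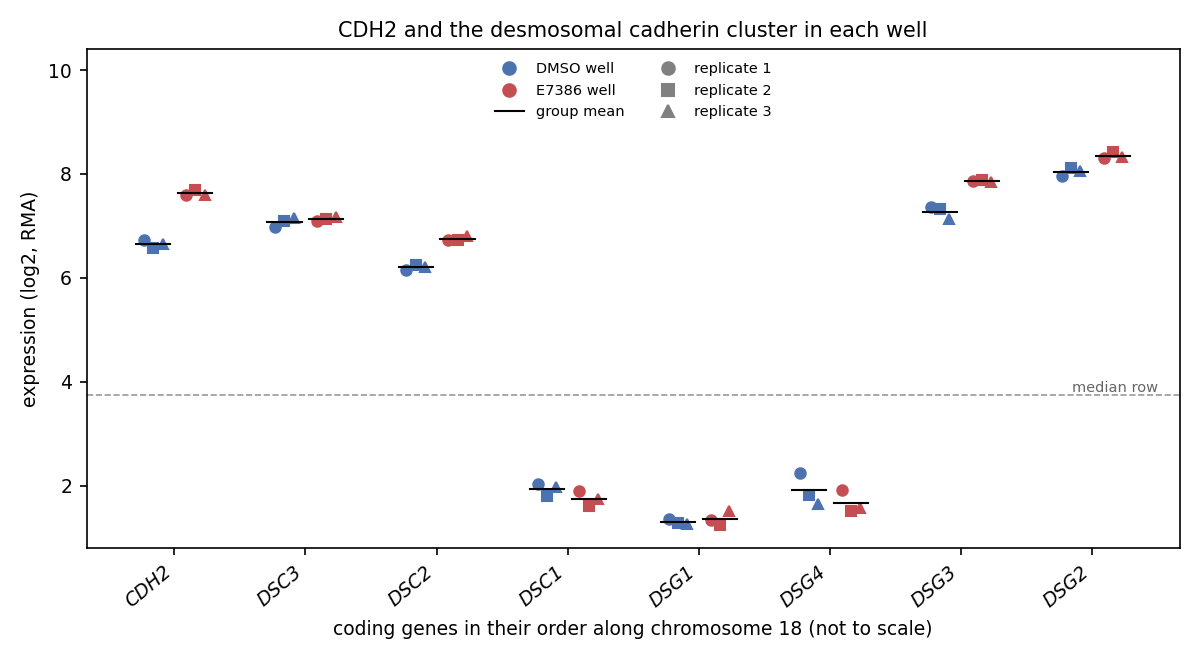
Log2 expression in each well of CDH2 and the 7 desmosomal cadherin genes, in their order along chromosome 18 and not to scale. The 5 genes above the median row had group means of 6.20 to 8.35, the 3 between DSC2 and DSG3 had group means of 1.29 to 1.93, and CDH2, DSC2 and DSG3 were called higher with E7386.

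The promoters of the 5 genes of this run that lay above the median row are shown because 3 of them rose and the other two were not called. Each sequence holds the 250 bases before the first listed start in RefSeq, 5′ to 3′ on the gene's strand. They lie at chr18:28177131-28177380 on the minus strand for CDH2, chr18:31042743-31042992 on the minus strand for DSC3, chr18:31102422-31102671 on the minus strand for DSC2, chr18:31447491-31447740 on the plus strand for DSG3 and chr18:31497927-31498176 on the plus strand for DSG2, in GRCh38.p14. Capitals mark the E-box CAGGTG, or CACCTG where it reads on the other strand, a motif bound by the repressors SNAI2 and ZEB1.
CDH2: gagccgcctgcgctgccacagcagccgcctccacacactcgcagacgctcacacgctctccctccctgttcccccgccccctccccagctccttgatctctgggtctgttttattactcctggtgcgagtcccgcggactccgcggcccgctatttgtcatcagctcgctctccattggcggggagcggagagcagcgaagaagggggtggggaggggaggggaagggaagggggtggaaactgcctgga
DSC3: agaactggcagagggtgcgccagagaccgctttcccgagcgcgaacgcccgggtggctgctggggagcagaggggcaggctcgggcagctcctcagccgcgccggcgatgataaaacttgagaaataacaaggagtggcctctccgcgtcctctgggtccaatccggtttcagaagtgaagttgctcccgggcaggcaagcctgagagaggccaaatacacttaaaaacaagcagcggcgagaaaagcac
DSC2: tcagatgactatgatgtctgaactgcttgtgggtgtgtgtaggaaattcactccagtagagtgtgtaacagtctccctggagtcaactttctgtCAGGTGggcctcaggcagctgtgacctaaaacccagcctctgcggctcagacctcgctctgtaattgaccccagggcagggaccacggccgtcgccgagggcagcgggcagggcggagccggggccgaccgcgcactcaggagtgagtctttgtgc
DSG3: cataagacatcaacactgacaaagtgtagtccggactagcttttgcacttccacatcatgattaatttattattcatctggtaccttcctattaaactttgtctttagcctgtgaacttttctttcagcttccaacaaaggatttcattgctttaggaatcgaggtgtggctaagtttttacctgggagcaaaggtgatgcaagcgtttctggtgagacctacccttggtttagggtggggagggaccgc
DSG2: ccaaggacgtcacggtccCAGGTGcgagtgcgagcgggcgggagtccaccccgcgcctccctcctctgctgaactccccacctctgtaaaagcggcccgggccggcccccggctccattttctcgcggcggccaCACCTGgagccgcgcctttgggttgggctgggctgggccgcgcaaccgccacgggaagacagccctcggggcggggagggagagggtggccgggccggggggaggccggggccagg

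The E-box was found once in the DSC2 window, starting 156 bases before the start, and in DSG2 starting 232 and 116 bases before it. It was not found in the windows of CDH2, DSC3 or DSG3, nor at the second listed starts of CDH2 and DSC2. Among all 35116 promoter windows that RefSeq lists here, 17.5% held it, and so did 8 of the 51 windows of the 30 members listed there. The windows with the motif belong to DSC2, which rose, to JUP, which fell and has it at its second listed start, and to DSG2, DSG1, AFDN, DSP, NECTIN4 and CDH23, which were not called. No window was listed for CTNND1, NECTIN1, PPL and PKP3, which fell, nor for CDH1 and CDH3, so the motif was not looked for there. The match is to letters only, and binding was not measured.

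In the desmosomal plaque, JUP and PKP3 fell and PKP4 rose. JUP encodes plakoglobin, also called γ-catenin, a close relative of β-catenin that serves both junctions. It read 9.36, 9.20 and 9.32 in DMSO and 8.84, 8.71 and 8.76 with E7386. The groups did not overlap, and the fall was 0.53 ± 0.090 (SE), 1.44-fold (limma adjusted p = 0.0065). PKP3, a plakophilin found through the layers of stratified epithelia, read 6.31, 6.35 and 6.46 in DMSO and 5.93, 5.73 and 6.03 with E7386. It fell by 0.48 ± 0.11, 1.39-fold (limma adjusted p = 0.018), and the call was lost without DMSO replicate 3 (limma adjusted p = 0.0607) or E7386 replicate 2 (0.0615), and in the ordinary two-sample test.

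PKP4, also named p0071, is found at adherens junctions as well as desmosomes. It read 7.05, 7.03 and 7.03 in DMSO and 7.42, 7.58 and 7.43 with E7386. It rose by 0.44 ± 0.086 (SE), 1.36-fold (limma adjusted p = 0.012). PKP2, the plakophilin of heart and simple epithelia, read 9.51, 9.40 and 9.63 in DMSO and 9.31, 9.21 and 9.25 with E7386. PKP1, the plakophilin of the upper epidermis, read 6.53, 6.62 and 6.59 in DMSO and 6.71, 6.70 and 6.75 with E7386. In neither did the groups overlap, with PKP2 at -0.26 ± 0.094 and PKP1 at 0.14 ± 0.081, and neither was called (limma adjusted p = 0.11 and 0.30). All 5 plaque genes of this family had separate groups, 3 lower and 2 higher. All of them lay above the median row, where 56.3% of all rows had separate groups.

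Of the plakins and PERP, PPL alone was called. It encodes periplakin, which links desmosomes and the cornified envelope to keratin. It read 6.25, 6.23 and 6.43 in DMSO and 5.58, 5.42 and 5.60 with E7386, a fall of 0.77 ± 0.10 (SE), 1.70-fold (limma adjusted p = 0.0022). Its partner EVPL, envoplakin, read 4.66, 4.94 and 5.03 in DMSO and 4.67, 4.49 and 4.53 with E7386. The first DMSO well lay within the E7386 values, and the difference of -0.31 ± 0.12 was not called (limma adjusted p = 0.12).

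DSP encodes desmoplakin, the obligate keratin anchor of the desmosome. It read 9.62, 9.72 and 9.73 in DMSO and 9.57, 9.52 and 9.42 with E7386. The groups did not overlap, and the difference of -0.19 ± 0.088 (SE) was not called (limma adjusted p = 0.20), with an interval from -0.39 to 0.016. PERP, a tetraspan protein of desmosomes and a p53 target, read 7.71, 7.51 and 7.45 in DMSO and 7.59, 7.42 and 7.52 with E7386. Its wells overlapped, and its difference of -0.051 turned to 0.026 without DMSO replicate 1.

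The differences of related members can be set against each other within each well. Ratios were taken between 10 pairs of related members, or a member and CTNNB1. The pairs were chosen after their values were seen, mostly as a called gene and a relative that was not called or moved the other way. The ratios are therefore a description with no test, and the choice of pairs fixed that their groups separate. A ratio within an array shows unequal change, and its absolute size depends on the probes.

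The ratio of CDH2 to CDH1, N-cadherin over E-cadherin, was -1.94 ± 0.13 (SD) on the log2 scale in DMSO and -1.22 ± 0.052 with E7386, a difference of 0.72. For CDH2 against CDH3 the difference was 1.04. It was 0.92 for PKP4 against PKP3 and 0.49 for DSC2 against DSC3. DSG3 against DSG2 stood at -0.77 ± 0.17 and -0.48 ± 0.056, a difference of 0.29. The difference was -1.11 for CTNND1 against CTNNA1 and -0.80 for NECTIN1 against NECTIN4. JUP against its relative CTNNB1, the β-catenin gene, moved from -0.58 ± 0.070 to -1.12 ± 0.13. PPL against EVPL and DSP moved by -0.45 and -0.58.

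**Figure D4:**
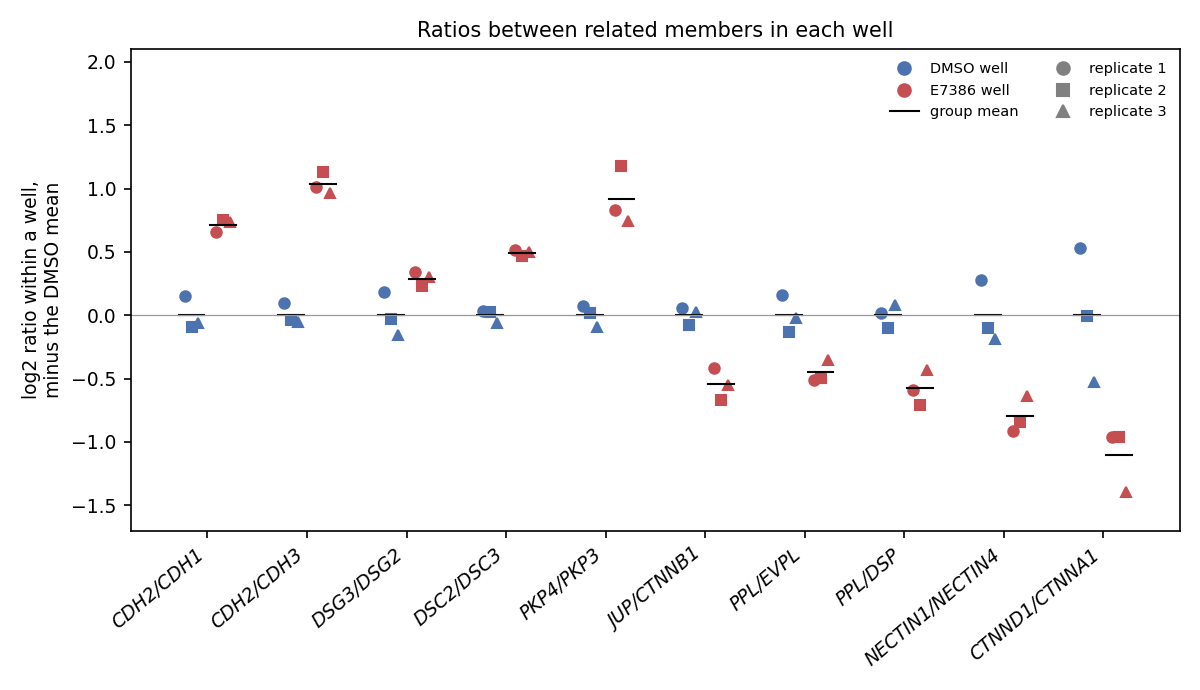
Log2 ratio of related members within each well, relative to the mean of the DMSO wells, with DMSO in blue, E7386 in red and bars for group means. The pairs were chosen after their values were seen, so that the groups separate by choice, and the changes run from -1.11 for CTNND1/CTNNA1 to 1.04 for CDH2/CDH3.

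Other junction genes were listed by role, and their counts stand beside 18.6% of all rows called and 33.2% of rows above the median row. Of 33 measured partners of the adherens junction 5 rose and 3 fell, 24.2% of the list, with a median of -0.0037. All 33 lay above the median row. PTPRM, a receptor phosphatase that binds cadherins, rose from 5.02 to 5.98 (limma adjusted p = 7.7e-04). PVR, a nectin-like adhesion receptor, rose by 0.88 ± 0.10 (SE), and ZYX, zyxin of actin-anchored contacts, by 0.69 ± 0.098. CTNNBIP1, which keeps β-catenin from TCF factors, fell by 0.89 ± 0.12 (limma adjusted p = 0.0030). CTNNB1 itself read 9.88, 9.86 and 9.88 in DMSO and 9.83, 9.95 and 9.89 with E7386, a difference of 0.020 with an interval from -0.17 to 0.21. Without E7386 replicate 3, 4 genes of this list were called higher and 1 lower.

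Of 22 measured genes listed as partners of desmosomes and keratins 6 fell and 3 rose, 40.9% of the list, with a median of -0.076. The list is broad and holds more than keratin anchors. Of the 18 above the median row 8 were called. The keratin genes KRT14 and KRT19, whose filaments the desmosome anchors, fell by 1.64 ± 0.11 (SE) and by 1.35 ± 0.14 (limma adjusted p = 1.4e-04 and 8.2e-04). KLK5, a protease that cleaves desmosomal cadherins in skin, fell by 1.24 ± 0.090. SERPINB5, the epithelial serpin maspin, fell by 0.90 ± 0.14, and PNN fell by 0.39 ± 0.099 (limma adjusted p = 0.031). The 3 genes that rose were FLOT1, TMEM65 and the keratin gene KRT1, the last of them below the median row. Of the other keratin genes measured in this list KRT5 was called lower, and KRT8, KRT10, KRT16 and KRT18 were not called. With a minimum of 1.5-fold, 5 genes of this list remained called, all lower.

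Of 24 measured transcription factors and splicing regulators of epithelial junction genes 5 rose and none fell, 20.8% of the list, with a median of 0.031. Of the 15 above the median row 4 were called. At an unadjusted p under 0.05, 5 genes of this list were higher and 1 lower. The lower one was CTCF, at -0.29 ± 0.085 (SE), which narrowly missed the threshold (limma adjusted p = 0.0501). In the fits with array weights or with an intensity trend, 1 gene of this list was called lower. ZEB1, a repressor of CDH1, read 3.15, 2.80 and 2.88 in DMSO and 4.25, 3.91 and 3.46 with E7386. It rose by 0.94 ± 0.20 (SE) from below the median row to near it (limma adjusted p = 0.016), where sizes are uncertain. Its call was lost without DMSO replicate 2 or 3 or E7386 replicate 2, with adjusted p of 0.055 to 0.060 in limma, and in the ordinary two-sample test. KLF4 and KLF5, factors of epithelial differentiation, rose by 0.87 ± 0.11 and 0.70 ± 0.087, and GATA3 by 0.85 ± 0.15. SNAI2, the repressor Slug, stood at 10.52 ± 0.11 (SD) in DMSO and 10.55 ± 0.060 with E7386. GRHL2, an activator of CDH1, stood at 7.70 ± 0.11 and 7.58 ± 0.063, and neither was called. Without DMSO replicate 3, 3 genes of this list were called.

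Of 22 measured sheddases and turnover genes 9 rose and none fell, 40.9% of the list, with a median of 0.21. All but 1 of them lay above the median row, where 18.2% of all rows were called higher and 15.1% lower. At an unadjusted p under 0.05, 11 were higher and none lower. ADAM12 rose by 1.41 ± 0.11 (SE), the stromelysin gene MMP3 by 1.36 ± 0.096, the gelatinase gene MMP9 by 1.25 ± 0.12 and ADAM8 by 0.80 ± 0.11 (limma adjusted p at most 0.0027). ADAM10, the main sheddase of E-cadherin, had a difference of 0.079 ± 0.087 (limma adjusted p = 0.62). With a minimum of 1.5-fold, 5 genes of this list remained called.

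Of 30 measured genes of the wider cadherin superfamily 3 fell and 2 rose, 16.7% of the list. All 5 called genes were among the 10 above the median row, and the other 20 lay below it. FAT2, a giant cadherin of squamous epithelium, fell from 7.91 to 6.10, by 1.81 ± 0.093 (SE) (limma adjusted p = 6.3e-05). FAT1 fell by 0.65 ± 0.086 and CELSR2, a cadherin of planar polarity, by 1.03 ± 0.080. PCDH1, a protocadherin of airway epithelium, rose by 0.75 ± 0.13, and FAT4 rose by 0.64 ± 0.082. FAT4 was named after its values were seen.

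**Figure D5:**
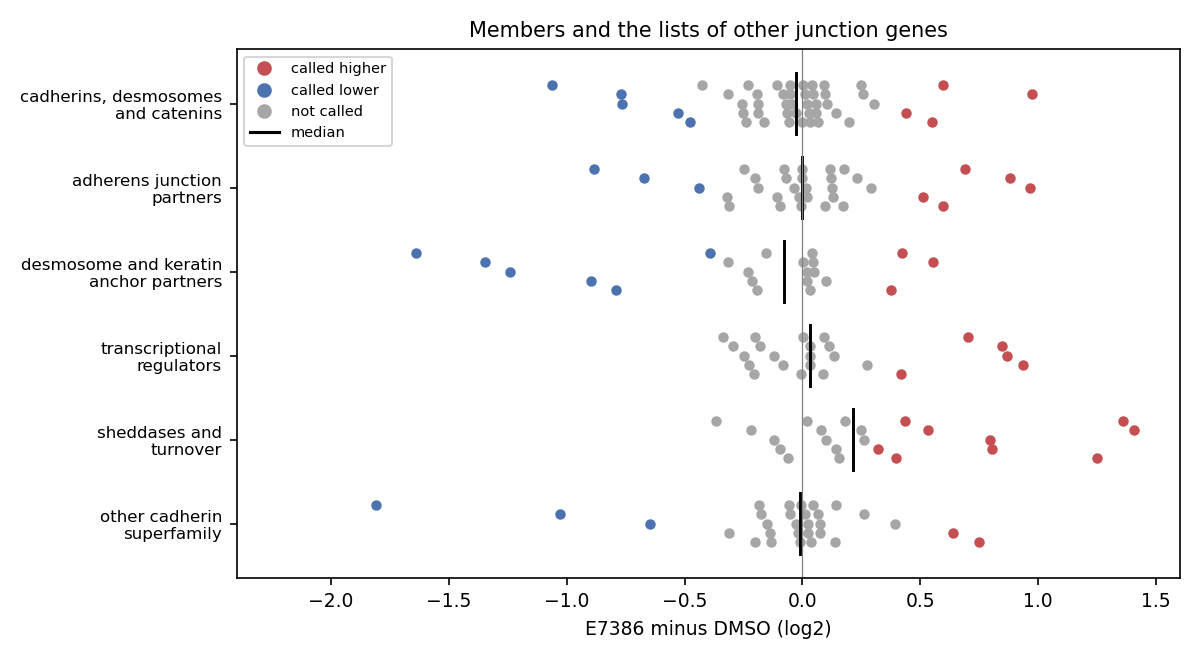
Difference between E7386 and DMSO wells for the members and for 5 lists of other junction genes, on the log2 scale, with called genes in colour and a bar for the median of each list. The sheddase and turnover list has the highest median, 0.21, with 9 genes called higher, and FAT2 in the lowest row has the largest fall, -1.81.

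The label of the cells was set beside marker genes. All 7 measured markers of squamous epithelium lay above the median row, and their mean was 9.80 to 9.83 in DMSO wells and 9.49 to 9.57 in E7386 wells. The basal keratin genes KRT14 and KRT5 were called lower, and LAMB3 was called higher. Of the markers of fibroblasts 2 of 8 lay above the median row, of endothelial cells 2 of 8, of leukocytes 1 of 7, of melanocytes none of 5 and of neural cells 1 of 6. The mean of the fibroblast list was 2.67 to 2.87 in DMSO and 2.69 to 2.76 with E7386, ranges that overlap. The neural list was also dim, at 2.95 to 3.02 and 2.95 to 3.08, with MAP2 called higher at 0.52 ± 0.12 (SE). The mean of the endothelial list was 2.51 to 2.55 in DMSO and 2.29 to 2.40 with E7386, ranges that do not overlap, and none of its 8 genes was called in limma, with 2 lower at an unadjusted p under 0.05. The leukocyte list stood at 2.93 to 3.12 and 2.84 to 3.01, and the melanocyte list at 2.58 to 3.02 and 2.47 to 2.66, and both overlapped. The part of the lower basal keratin expression and of the lower endothelial mean in the junction results was not tested.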

How the data were processed

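The deposited table holds log2 expression values, 1 column per well, made by the authors with RMA in affy 1.36.1, as the submitters' processing notes list. Background correction, quantile normalization and a summary over each gene's probes are parts of RMA, and a change in total RNA per cell is lost in them. Neither the probe set definition nor the genome build behind the table is given in the sources used here. Array medians lay between 3.74 and 3.79, Pearson correlations across genes were 0.992 to 0.995 within groups and 0.982 to 0.985 between them, and no 2 columns were identical. The platform annotation gave 1 symbol to 22458 of 23786 rows, and the other 1328 stayed in the fits unnamed.

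All rows were fitted with a treatment term alone in limma 3.58.1 in R 4.3.3, with empirical Bayes moderation. The fitting procedure was first tested on simulated data with known changes. Two-sided p-values were adjusted by the Benjamini-Hochberg method over all rows. Differences are E7386 minus DMSO with the standard error (SE) of that fit. SD is the standard deviation over the 3 wells of a group. The number of arrays limits the precision, and the median SD within groups was 0.15.

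The members and gene lists were chosen with earlier results of these data known. Members described by well followed a further rule, apart from the one that defined the members. It took those called and any with separate groups and a difference of at least 0.5. It also took 16 junction genes whatever their result (CDH1, CDH2, CDH3, CTNNA1, CTNND1, JUP, DSP, PKP1, PKP2, PKP3, DSG2, DSG3, DSC2, DSC3, PERP and AFDN). From each list of other genes the rule took up to 4 called genes with the largest difference, besides CTNNB1, SNAI2, ZEB1 and GRHL2. Further genes were named after their values were seen. TP63, also in that rule, was not analysed here. Alternatives were a renewed quantile normalization, median centring, leaving out rows below the median row, a variance prior that follows intensity (plain or robust), no moderation (an ordinary two-sample test), weighted arrays, the replicate block, a minimum of 1.5-fold, and dropping wells one at a time. Promoter sequences are from RefSeq, GRCh38.p14.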

Additional observations from a re-analysis of the deposited data

How the results depend on the processing

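The count of 9 called members became 14, 6 higher and 8 lower, without rows below the median row, with an intensity trend and with an intensity trend and robust prior. These fits kept the 9 and added CDH1, DSG2, PKP2 and CTNNAL1, with EVPL in the first and DSP in the others. With a minimum of 1.5-fold 5 members remained called, 2 higher and 3 lower. Leaving out 1 well gave 7 to 10 members. Of the 9 called members CTNND1 and PKP3 lost their call in some fit, and the other 7 kept direction and call in all 14 refits. Signs turned only for genes that were not called. With 1 well left out PERP ran from -0.11 to 0.026, the latter without DMSO replicate 1. AFDN was -0.010 with array weights and ran from -0.057 to 0.034 with 1 well left out, below 0 without DMSO replicate 2 (-0.0063), DMSO replicate 3 (-0.020) or E7386 replicate 1. CTNNB1 ran from -0.011, without E7386 replicate 2, to 0.049. SNAI2 ran from -0.028 to 0.084, below 0 without DMSO replicate 1 or E7386 replicate 3 (-9.8e-04). Over all rows 4430 were called, 2171 with a minimum of 1.5-fold and 2907 to 3635 with 1 well left out, the lowest without E7386 replicate 3. The 1.5-fold minimum left 5 desmosome and keratin partners and 5 sheddase and turnover genes called. With 1 well left out the calls were 5 to 8 adherens junction partners, 7 to 9 desmosome and keratin partners and 3 to 4 regulators. They were 6 to 8 for sheddase and turnover genes and 5 to 6 for genes of the wider superfamily. The fits with 1 well left out hold fewer samples, and the fit without rows below the median row tests fewer rows. The intensity trend changes the variance prior on the same samples and rows, and the 1.5-fold minimum filters the main fit. Other causes of the changed counts were not tested. Whether the replicate numbers pair the wells was not settled. Deviations of same-numbered wells correlated weakly, at 0.051, 0.12 and -0.0077. DMSO replicates 1 and 2 correlated best with their own number, and DMSO replicate 3 did not. Deviations from a mean of 3 wells are tied to each other, so this check cannot exclude pairing. With the replicate number as a block 10 members and 3701 rows were called, and the added member was CTNNAL1. CTNND1 kept its call in that fit, with an SE of 0.15 (limma adjusted p = 0.012). RMA's compression of dim genes limits what can be seen in the 24 members below the median row.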

Other observations

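The 3 members on chromosome 11, PKP3, CTNND1 and NECTIN1, were all called lower, at -0.48, -1.06 and -0.77 on the log2 scale. All 3 lay above the median row, where 15.1% of all rows were called lower, against 8.69% of all rows. They are far apart, with 503 and 666 coding genes between them in the RefSeq table. Of the 11 members on chromosome 18, 3 were called, all higher, beside 9.93% of all rows and 18.2% of rows above the median row called higher. Of the 8 on chromosome 16 only PPL was called, and none of the 7 on chromosome 5 was, beside 18.6% of all rows. Most members on each of these chromosomes lay below the median row, where 4% of all rows were called. These groupings were noticed after the values were seen, and no test was made of them.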
